A study of Mus musculus with 14 samples.

Results

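The genes described here encode 9 hydrolases that sit in the apical membrane of the enterocyte, the absorptive cell of the small intestine. They were taken by gene symbol, and all 9 were found among the 54532 genes of the count table. The peptidases were Anpep, Enpep, Dpp4, Ace, Mep1a and Mep1b, and the disaccharidases were Sis, Lct and Treh. RNA was measured in the ileum mucosa of male mice, 7 WT and 7 IKO, with 1 library per mouse. The WT mice carried floxed NCoR1 alleles without Cre. The IKO mice carried the same floxed alleles and Cre recombinase under the villin promoter, which is active in epithelial cells along the intestine, so the deletion was not limited to the ileum or to mature enterocytes. Both groups were young adults when they were placed on a high-fat diet (HFD), and they ate it for 15 weeks. All comparisons were therefore made between mice on the HFD, and chow-fed mice were not analysed here. The study's list of resources names C57 BL 6/J mice, and the sources used here do not say whether the floxed lines were of that strain.

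The brush border is the carpet of microvilli on the apical face of the enterocyte, and its membrane carries the enzymes of terminal digestion. Membrane peptidases cut the oligopeptides left by pancreatic proteases down to amino acids, dipeptides and tripeptides, and disaccharidases split sugars to monosaccharides, so that transporters in the same membrane can take up the products. These genes are induced as cells leave the crypt and move up the villus, and lactase falls at weaning while sucrase-isomaltase and trehalase rise. NCoR1 is a corepressor that nuclear receptors recruit when no ligand is bound, and the comparison asks which of these enzymes change when it is lost from the epithelium.

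The libraries held between 14749669 and 21557468 counted reads. Ncor1 was 130 CPM (counts scaled to a common library size with TMM factors) in the median WT mouse and 47.7 CPM in the median IKO mouse, and no IKO value reached the lowest WT value (106 CPM against a highest IKO value of 64.0 CPM). Counts were summed over all exons of Ncor1, which does not show the deleted exons by themselves. Libraries that stood apart were WT 3 and IKO 4, where mitochondrially encoded genes took 23.9% and 50.3% of the counts against 3.49% to 10.3% in the other 12, and WT 4, IKO 1 and IKO 2, where 6 smooth muscle genes summed to 9264, 682 and 321 CPM against at most 58.7 CPM in the other 11. The enterocyte markers, among them Alpi, Fabp2 and Krt20, summed to between 15848 and 89241 CPM in WT mice and between 40840 and 63520 CPM in IKO mice. The labels name the cell type as intestinal epithelial cells, and markers of lymphocytes were also detected. The data are from whole mucosa, in which fewer cells of a type and less RNA per cell cannot be told apart.

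Together the 9 hydrolases took 1.22% to 3.20% of the counts in WT mice (median 1.97%) and 0.373% to 3.44% in IKO mice (median 2.88%). Levels of different genes were compared per gene length, as the deposited FPKM (fragments per kilobase, which the authors scaled for library depth with size factors). In WT mice Anpep came first with a median of 1866 FPKM (range 863 to 2691), a level that 16 genes of the whole table exceeded. Mep1b followed with a median of 511 FPKM, then Sis with 371, Enpep with 294, Mep1a with 188, Dpp4 with 147, Ace with 141, Lct with 98.1 and Treh with 65.4 FPKM. Anpep was above Mep1b in 7 of 7 WT mice and their ranges did not overlap, whereas the ranges of every other pair of neighbours in this order overlapped. In IKO mice Anpep again came first (median 3618 FPKM, range 1075 to 5050) and Mep1b second (median 905 FPKM). Enpep at 598 FPKM, Ace at 386 FPKM, Sis at 308 FPKM, Mep1a at 303 FPKM, Treh at 111 FPKM, Dpp4 at 105 FPKM and Lct at 70.6 FPKM then followed. Every pair of neighbours below Anpep overlapped there too.

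The 2 genotypes were compared in edgeR by its quasi-likelihood test, and p-values were adjusted by the Benjamini-Hochberg method over the 13846 genes that passed the filter on low counts, and all 9 hydrolases passed it. None of the 9 was past an adjusted p of 0.05, and 0 of 9 had an unadjusted p under 0.05. Over all genes tested, 8.67% were past the adjusted threshold (4.38% higher and 4.28% lower in IKO mice) and 30.4% had an unadjusted p under 0.05. DESeq2 and limma-voom with sample quality weights also called 0 of the 9, as did edgeR without WT 3 and IKO 4 and without WT 4, IKO 1 and IKO 2. Values of WT and IKO mice overlapped for each of the 9, and they did not overlap for 3.1% of all genes. The log2 fold change (IKO minus WT) was above 0 for 6 of the 9, against 43.5% of all genes, and its median was 0.32 over the 9 and -0.09 over all genes. The 95% interval of the fold change included 1 for each of the 9.

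**Figure D1:**
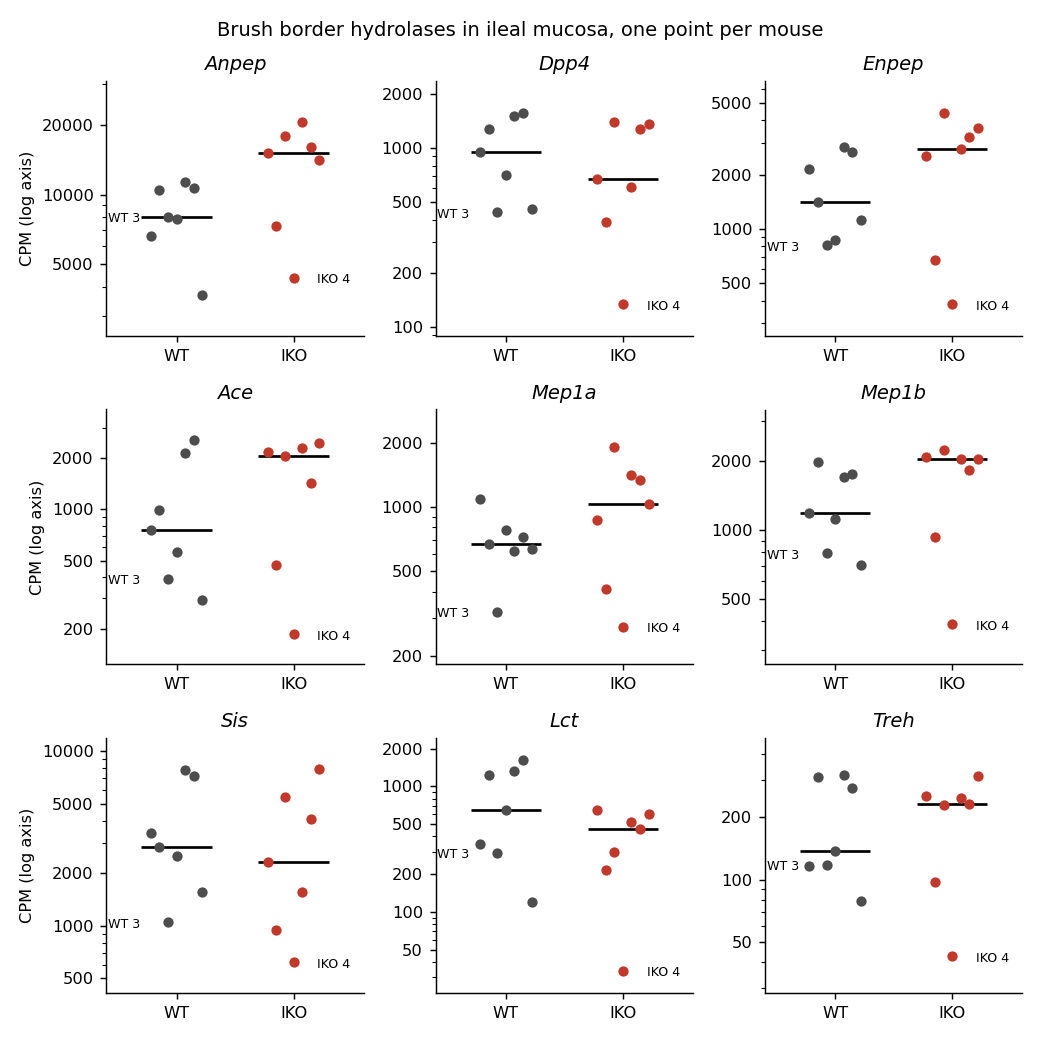
CPM (TMM-scaled, log axis) of the 9 hydrolase genes, with 1 point per mouse, 7 WT (grey) and 7 IKO (red) mice, and a bar at the median of each genotype. WT and IKO values overlap in each panel, and the mouse labelled IKO 4 is the lowest IKO point in all 9.

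Anpep encodes aminopeptidase N, which removes neutral residues from the amino end of peptides. The gene (ENSMUSG00000039062) lies on the minus strand of chromosome 7 from 79821803 to 79861059 (mm10), with 21 exons in its principal transcript. Its CPM was 3684 at the lowest, 8015 at the median and 11297 at the highest in WT mice, and 4386, 15127 and 20558 in IKO mice. Of the 7 IKO mice, 5 were above the highest WT value, the lowest of them at 14054 CPM, while IKO 2 (7285 CPM) and IKO 4 (4386 CPM) lay within the WT range. Means were 8361 ± 2696 CPM in WT and 13602 ± 5763 CPM in IKO mice (SD, n = 7 each), a difference that did not pass the test, with a log2 fold change of 0.70 (SE 0.35, edgeR adjusted p = 0.183) and a 95% interval of 0.977-fold to 2.71-fold. Without IKO 4 the log2 fold change was 0.86 (edgeR adjusted p = 0.083), and in limma-voom with sample quality weights the adjusted p was 0.0523.

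Enpep encodes aminopeptidase A, which removes acidic residues and also cuts angiotensin. It lies on the minus strand of chromosome 3 from 129269175 to 129332720. In WT mice its CPM ran from 811 through a median of 1418 to 2851, and in IKO mice from 382 through 2768 to 4410.5. The IKO values fell on both sides of the WT range, 3 above its top and 2 below its bottom. The log2 fold change was 0.57 (SE 0.48, edgeR adjusted p = 0.434), with a 95% interval of 0.736-fold to 2.99-fold.

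Dpp4, also known as CD26, encodes dipeptidyl peptidase IV, which releases dipeptides ending in proline or alanine and inactivates incretin hormones. The gene (ENSMUSG00000035000) is on the minus strand of chromosome 2 from 62330073 to 62412231, with 26 exons. WT mice had 439 CPM at the lowest, 948 at the median and 1583 at the highest, and IKO mice 134, 671 and 1408. No IKO mouse was above the WT range, 5 lay within it, and 2 lay below it. The log2 fold change was -0.24 (SE 0.45, edgeR adjusted p = 0.749; 95% interval 0.434-fold to 1.65-fold). An antisense gene, Gm13561, overlaps Dpp4, and it held 114 counts in all WT libraries and 24 in all IKO libraries, and reads from the overlap cannot be assigned to a strand because strand-specific counting was not stated.

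Ace encodes angiotensin-converting enzyme, which removes dipeptides from the carboxyl end. It lies on the plus strand of chromosome 11 from 105967945 to 105989964. CPM was 294, 759 and 2551 (lowest, median and highest) in WT mice and 185, 2049 and 2431 in IKO mice. The WT mice spread over 8.66-fold, with WT 5 (2139 CPM) and WT 6 (2551 CPM) apart from the other 5, whereas 5 of 7 IKO mice lay between 1418 and 2431 CPM. The log2 fold change was 0.52 (SE 0.57, edgeR adjusted p = 0.559; 95% interval 0.620-fold to 3.31-fold).

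Mep1a and Mep1b encode the alpha and beta subunits of meprin, a metalloendopeptidase that cuts within peptide chains and that also trims mucin. Mep1a lies on the minus strand of chromosome 17 from 43474324 to 43502812. For Mep1a the lowest, median and highest CPM were 321, 666 and 1091 in WT mice and 273, 1033 and 1907 in IKO mice. For Mep1b they were 706, 1192 and 1977 in WT mice and 388, 2042 and 2242 in IKO mice. In IKO mice 3 values of Mep1a and 4 of Mep1b were above every WT value, and in both genes IKO 4 was below every WT value. The log2 fold change was 0.58 for Mep1a (SE 0.37, edgeR adjusted p = 0.298) and 0.32 for Mep1b (SE 0.36, edgeR adjusted p = 0.560), with 95% intervals of 0.865-fold to 2.60-fold and 0.742-fold to 2.11-fold. The promoter of Mep1b was not searched for motifs here.

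Sis encodes sucrase-isomaltase, which splits sucrose and the branch points of starch, Lct encodes lactase, and Treh encodes trehalase, which splits the fungal and insect sugar trehalose. Sis lies on the minus strand of chromosome 3 from 72888557 to 72967863 with 48 exons, Lct on the minus strand of chromosome 1 from 128284756 to 128328318 with 17 exons, and Treh on the plus strand of chromosome 9 from 44673233 to 44686305 with 15 exons. The 250 bases before the start of each gene are shown because they hold most of the matches described next (RefSeq, GRCm38.p6, 5′ to 3′ on the strand of the gene, matched letters in capitals). The Sis window is chr3:72967864-72968113 (minus strand), the Lct window chr1:128328319-128328568 (minus strand) and the Treh window chr9:44672983-44673232 (plus strand).
Sis: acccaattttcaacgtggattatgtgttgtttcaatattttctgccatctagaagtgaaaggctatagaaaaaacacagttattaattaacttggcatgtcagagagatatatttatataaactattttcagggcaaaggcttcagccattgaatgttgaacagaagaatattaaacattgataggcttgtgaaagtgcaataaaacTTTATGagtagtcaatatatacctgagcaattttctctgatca
Lct: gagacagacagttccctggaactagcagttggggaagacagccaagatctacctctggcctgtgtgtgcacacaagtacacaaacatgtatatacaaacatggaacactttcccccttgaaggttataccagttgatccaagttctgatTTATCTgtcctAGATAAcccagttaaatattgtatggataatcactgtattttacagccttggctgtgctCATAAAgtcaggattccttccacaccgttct
Treh: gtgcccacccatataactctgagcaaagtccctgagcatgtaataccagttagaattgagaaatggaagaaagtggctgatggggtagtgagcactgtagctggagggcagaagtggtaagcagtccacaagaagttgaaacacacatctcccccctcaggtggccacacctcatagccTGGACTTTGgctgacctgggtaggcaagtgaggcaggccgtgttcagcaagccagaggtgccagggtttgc
The letters searched on both strands were TTTATG for caudal-type factors such as CDX2, AGATAA for GATA factors, CAAAGTCCA for HNF4, and the DR1 element of nuclear receptor dimers. Another planned string, GTTAAT, was not searched. Its reverse complement occurs in the Sis window shown, where it is not in capitals. TTTATG was found in Sis, with its first base 43 bases before the start, and as its reverse complement in Lct, from 31 to 26 bases before the start. It was present in 10.8% of 32851 windows of this length. Lct held AGATAA in both directions (9.99% of windows), while Dpp4 held AGATAA from 32 to 27 bases before its start. Treh held CAAAGTCCA in reverse, from 71 to 63 bases before the start, a match present in 0.384% of windows. The windows of Anpep, Enpep, Ace (both of its windows) and Mep1a held none of these letters, and 1 of the 9 hydrolases was not searched. Windows were placed at RefSeq starts, which can differ from the gene coordinates given above. The Anpep window (chr7:79848211-79848460) and the Ace window at chr11:105974939-105975188 lie inside those coordinates. The Mep1a window, from 43502774, overlaps the end of its gene. The bases before the outer end of the Anpep coordinates were not searched. A match is a string of letters and does not show that a factor binds.

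None of the disaccharidases passed the test, and Lct had the lowest log2 fold change of the 9 hydrolases. Sis was 1049, 2836 and 7852 CPM (lowest, median and highest) in WT mice and 619, 2322 and 7969 CPM in IKO mice. In IKO mice 2 values were below every WT value, 1 was above and 4 lay within the WT range, and the log2 fold change was -0.21 (SE 0.57, edgeR adjusted p = 0.831; 95% interval 0.376-fold to 1.996-fold). Its direction changed without WT 5 (0.08) or without WT 6 (0.03). Lct was 121, 645 and 1622 CPM in WT mice and 33.9, 456 and 654 CPM in IKO mice. WT 2, WT 5 and WT 6, at 1244 to 1622 CPM, were above every IKO value, and IKO 4 was below every WT value. Means were 799 ± 589.7 CPM in WT and 398 ± 225 CPM in IKO mice (SD, n = 7 each), and the log2 fold change of -1.01 was the largest in size (SE 0.59, edgeR adjusted p = 0.254; 95% interval 0.210-fold to 1.18-fold). In WT 2, WT 5 and WT 6 the 4 ileal enterocyte markers summed to 1720, 982 and 787 CPM, against 4057 to 8890 CPM in the other WT mice. In IKO mice they summed to 1010 CPM in IKO 1, which had the highest Lct, up to 6936 CPM in IKO 4, which had the lowest. In IKO 2 both were low, with markers at 1087 CPM and Lct at 215 CPM, the lowest after IKO 4. The part of these marker levels in the hydrolase values was not tested. Treh was 79.2, 137 and 319.6 CPM in WT mice and 42.8, 229.7 and 316 CPM in IKO mice. Its log2 fold change was 0.06 (SE 0.41, edgeR adjusted p = 0.935; 95% interval 0.571-fold to 1.90-fold), and leaving out a library moved it between -0.08 and 0.24.

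**Figure D2:**
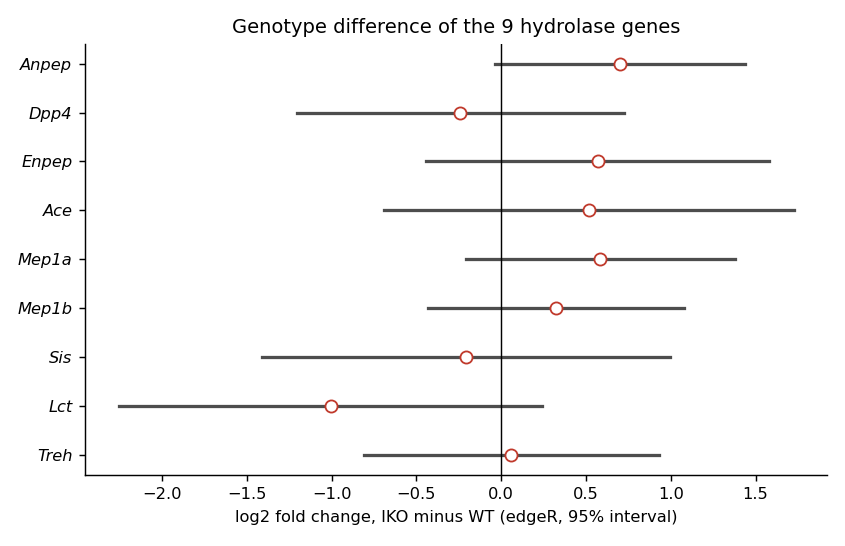
Log2 fold change (IKO minus WT, edgeR, 7 mice per genotype) of the 9 hydrolase genes, with bars for the 95% interval and open circles for genes that are not past an adjusted p of 0.05. All 9 circles are open and each interval crosses 0, from Lct at -1.01 to Anpep at 0.70.

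Whether 2 hydrolases differed in their genotype effect was tested on 6 ratios within each mouse, which do not depend on how the library was scaled. The ratio with the smallest p was that of Dpp4 to Anpep. In FPKM, Dpp4 was 3.58% of Anpep at the lowest, 8.13% at the median and 9.71% at the highest in WT mice and 1.92%, 3.47% and 6.36% in IKO mice. All 7 IKO mice were below the WT median, and WT 3 at 3.58% and WT 4 at 5.91% lay within the IKO range. The log2 ratio fell by 1.05 (SE 0.32; exact two-sided permutation test p = 0.00991), but after Benjamini-Hochberg adjustment over the 6 ratios the p was 0.0594. Without WT 3 and IKO 4 together the difference was -1.09 and the adjusted p of the exact permutation test 0.026, and leaving out 1 library at a time gave adjusted p from 0.021 (without WT 3) to 0.126 (without WT 1 or WT 6), with 0.0245 without IKO 7.

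The other ratios did not pass either. Lct to Sis differed by -0.59 on the log2 scale (SE 0.54, adjusted exact permutation p = 0.612), Treh to Sis by 0.39 (SE 0.39, adjusted exact permutation p = 0.612) and Enpep to Anpep by -0.29 (SE 0.36, adjusted exact permutation p = 0.612). The values for the meprin subunits were spread in both groups, since Mep1b was 1.65 to 4.48 times Mep1a in WT mice and 1.78 to 3.63 times in IKO mice in FPKM. This ratio was below the WT median in 7 of 7 IKO mice, with a log2 difference of -0.18 (SE 0.28, adjusted exact permutation p = 0.612). Ace to Anpep differed by -0.12 (SE 0.40, adjusted exact permutation p = 0.758).

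**Figure D3:**
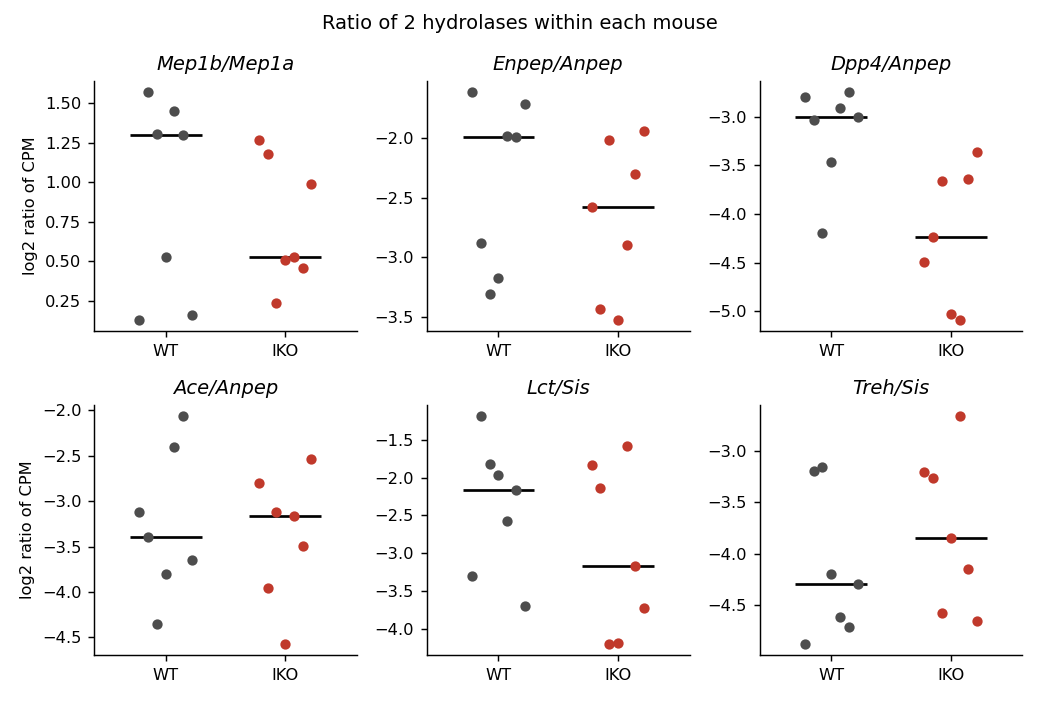
Log2 ratio of the CPM of 2 hydrolases within each mouse, for 6 pairs, with 1 point per mouse (7 WT, grey, and 7 IKO, red) and a bar at the median. For Dpp4/Anpep all 7 IKO points lie below the WT median bar, and the groups overlap in each panel.

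The hydrolases varied together from mouse to mouse. Once the mean of its genotype was taken off each log2 CPM, each of the 36 pairs of hydrolases had a positive correlation over the 14 mice, with Pearson r from 0.549 (Mep1a and Lct) through a median of 0.871 to 0.963 (Mep1b and Treh). Spearman's rho ran from 0.222 to 0.925 with a median of 0.732. Both genes of a pair share a library, so these values are a description without a test. Without WT 3 and IKO 4, the libraries with the high mitochondrial share, the median r was 0.773, the lowest 0.086 and the highest 0.948. WT 7, the lowest WT mouse for 5 hydrolases, stayed in that check. Without the 2 mice farthest out for each pair, the median r was 0.743, the lowest 0.170 and the highest 0.928. Within WT mice alone the median r was 0.818, with 35 of 36 pairs above 0, and within IKO mice alone it was 0.916 with 36 of 36 above 0.

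Single mice stood low or high for the whole set. IKO 4 was the lowest IKO mouse for 9 of 9 hydrolases, at between 3.45-fold (Anpep) and 13.5-fold (Lct) below the IKO median, and IKO 2 was above the IKO median for 0 of 9. Among WT mice the lowest was WT 7 for 5 hydrolases and WT 3 for 4, whereas WT 6 was above the WT median for 9 of 9 and WT 5 for 8 of 9. WT 5 and WT 6 were also the pair of libraries most alike, with a chi-square per gene of 18.7 against 44.2 for the next pair. No fit left out both of them. IKO 4 and WT 3 were the libraries with the high mitochondrial share, and IKO 2 was one of those with smooth muscle genes, and WT 7 had a mitochondrial share of 5.18%. The part of these library features in the levels was not tested. The spread within a genotype (SD of log2 CPM) was 0.69 for Anpep, 0.78 for Mep1b, 0.81 for Mep1a, 0.93 for Treh, 1.03 for Dpp4, 1.10 for Enpep, 1.22 for Sis, 1.31 for Ace and 1.44 for Lct. The median over the 908 genes with at least the mean level of Treh was 0.47.

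**Figure D4:**
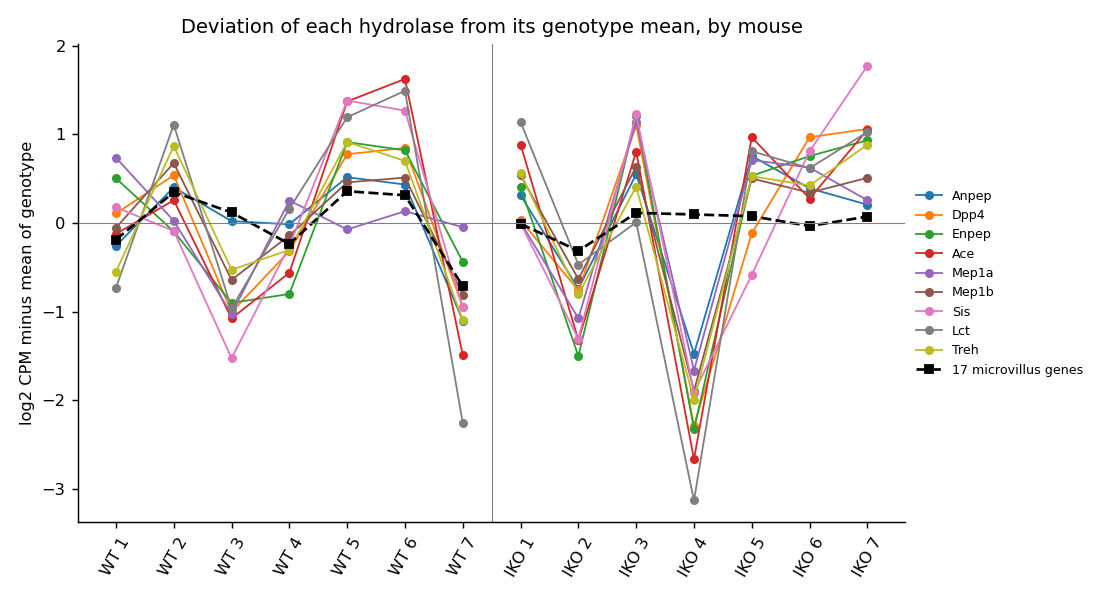
Log2 CPM of each hydrolase minus the mean of its genotype, for 7 WT and 7 IKO mice (coloured lines, 1 per gene), with the mean of 17 microvillus genes treated the same way (black dashed line). All 9 hydrolases are low in IKO 4 and most are high in WT 5 and WT 6, while the microvillus genes stay near their mean in IKO 4.

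On the TMM scale, the mouse with the least hydrolase RNA, IKO 4, was not low for the microvillus genes. Its mitochondrial share was 50.3% and its TMM factor 0.579, the lowest of the 14 libraries, which raises its CPM. High ranks of IKO 4 given here hold on this scale and were not examined without the factor. In IKO 4 the 17 genes of the microvillus skeleton and its links summed to 25421 CPM. This was the highest of the 7 IKO mice, with IKO 3 next at 25079 CPM. The 9 hydrolases summed to 6444 CPM there, the lowest, against an IKO median of 29828 CPM. The cytosolic peptidases were also highest in IKO 4, at a summed 6425 CPM, and transporters of amino acids, peptides and sugars were lowest there at 1464 CPM, against an IKO median of 7190.0 CPM. The enterocyte markers (40840 CPM) and goblet cell markers (2453 CPM) of IKO 4 were the lowest of the IKO mice as well, and its Paneth cell markers (3660 CPM) the highest. In WT 7 the microvillus genes were the lowest of the WT mice, at 8809 CPM. Over the 14 mice the deviations of single hydrolases followed the mean of the transporters with r from 0.805 (Mep1a) to 0.978 (Ace), the mean of the 7 other brush border hydrolases with r from 0.738 to 0.961, and the mean of the microvillus genes with r from 0.032 (Mep1a) to 0.600 (Anpep). The median r over the 9 hydrolases was 0.944 for the transporters, 0.914 for the other hydrolases, 0.713 for villus tip markers, 0.636 for enterocyte markers and 0.442 for the microvillus genes. For the 4 ileal enterocyte markers the median r was -0.124, with r from -0.404 (Lct) to 0.332 (Mep1a). Of the enterocyte factors, Gata4 had r between 0.029 and 0.749 (Lct) with the hydrolases and Cdx1 between -0.680 and -0.433. These are descriptions over mice that share the same libraries.

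Each hydrolase was next set against the mean log2 level of the 17 microvillus genes in the same mouse, a scale on which 28.2% of all genes were past an adjusted p of 0.05, nearly all of them lower in IKO mice (27.2%). None of the 9 hydrolases was past it. Of the 17 reference genes, 16 had a log2 fold change above 0, with a median of 0.45, which shifts other genes down on this scale. Lct stood at 0.11 ± 1.05 in WT and -1.36 ± 1.51 in IKO mice (mean log2 difference from the microvillus genes, SD, n = 7; exact permutation p = 0.0390, adjusted over all genes 0.0985), and 7 of 7 IKO mice were below the WT median. Dpp4 stood at 0.72 ± 0.56 and -0.22 ± 1.22 (exact permutation p = 0.0676, adjusted over all genes 0.143), also with 7 of 7 IKO mice below the WT median. In CPM alone, 3 of 7 IKO mice were above the WT median for Dpp4 and 1 of 7 for Lct. The share of all genes with 7 of 7 below was not computed. Relative to the microvillus genes, an unadjusted p under 0.05 was found for 42.7% of all genes (40.9% lower in IKO mice) and for 1 of the 9 hydrolases, so a value such as that of Lct was common among all genes. Sis differed by -0.89 (exact permutation p = 0.164) and Treh by -0.50 (exact permutation p = 0.282), and the other 5 by between -0.30 (Mep1b) and 0.11 (Anpep).

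The genes that work with these enzymes were described by their counts, beside 8.67% called and a median log2 fold change of -0.09 over all genes tested. The 7 tested members of the other brush border hydrolases had 0 calls and a median log2 fold change of 0.18. The list holds Mgam (maltase-glucoamylase, 3251 ± 1297 CPM in WT and 3211 ± 1718 in IKO mice, SD, n = 7 each), Naaladl1 (log2 fold change 0.21) and Ggt1 (-0.13), and the edgeR adjusted p of these 3 lay between 0.643 and 0.981. Of 12 transporters that take up the products, 0 were called higher and 1 lower, with a median of 0.14. That gene was Slc2a2, the basolateral glucose and fructose transporter GLUT2, which was 31.4 CPM at the lowest, 102 at the median and 306 at the highest in WT mice and 9.49, 35.4 and 95.1 in IKO mice. It fell by 2.11 on the log2 scale (SE 0.60, edgeR adjusted p = 0.0419), with 7 of 7 IKO mice below the WT median, and the call held in 5 of 12 alternative settings and in 4 of 14 fits without 1 library. Slc5a1, the sodium-glucose transporter SGLT1, differed by 0.41 (edgeR adjusted p = 0.543), Slc6a19 by 0.24 (edgeR adjusted p = 0.718) and the peptide transporter Slc15a1 by -0.21 (edgeR adjusted p = 0.783).

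All 6 cytosolic peptidases, which finish the dipeptides and tripeptides that enter, had a log2 fold change above 0, with a median of 0.43 and 1 call. The call was Xpnpep1, an aminopeptidase that cuts before proline (518 ± 159 CPM in WT and 885 ± 158 CPM in IKO mice, SD, n = 7 each; log2 fold change 0.77, SE 0.21, edgeR adjusted p = 0.0393). It held in 8 of 12 alternative settings and in 4 of 14 fits without 1 library. Lap3 at 0.87 (edgeR adjusted p = 0.0701), Cndp2 at 0.45 (edgeR adjusted p = 0.137) and Pepd at 0.32 (edgeR adjusted p = 0.309) did not pass.

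Of the 17 microvillus genes, 16 had a log2 fold change above 0, with a median of 0.45, and 3 were called, all higher in IKO mice. Baiap2l1, which bends membranes and recruits Eps8 to microvilli, was 52.3 to 98.5 CPM in WT mice and 137 to 172 CPM in IKO mice with no overlap. Its log2 fold change was 1.03 (SE 0.14, edgeR adjusted p = 0.0010), and the call held in 12 of 12 alternative settings and in 14 of 14 fits without 1 library. Slc9a3r1, the scaffold that ties membrane proteins to ezrin, changed by 0.80 (edgeR adjusted p = 0.0485) and the motor Myo1d by 0.72 (edgeR adjusted p = 0.0499), and these calls held in 1 and 3 of 14 fits without 1 library. Villin itself, Vil1, whose promoter drives the Cre, differed by 0.30 (edgeR adjusted p = 0.418).

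Genes for delivery to the apical membrane had a log2 fold change above 0 in 8 of 8 cases, with a median of 0.45 and 1 call, Myo5b, the motor of apical recycling vesicles (216 ± 61.1 CPM in WT and 367 ± 57.8 CPM in IKO mice, SD, n = 7 each; log2 fold change 0.77, edgeR adjusted p = 0.0286). This call held in 8 of 12 alternative settings and in 8 of 14 fits without 1 library. Lgals4 (0.72, edgeR adjusted p = 0.0671), Anxa13 (0.40, edgeR adjusted p = 0.308) and Rab8a (0.47, edgeR adjusted p = 0.0906) did not pass. Among 12 transcription factors of the enterocyte the call was Isx, an intestinal homeobox gene, at 83.1 to 132 CPM in WT mice and 199 to 318 CPM in IKO mice. Its log2 fold change was 1.17 (SE 0.17, edgeR adjusted p = 0.0011), and the call held in 12 of 12 alternative settings and in 14 of 14 fits without 1 library. Factors whose letters were searched in the promoters, of which Gata4 was named for that search after its value was seen, did not pass, with log2 fold changes of 0.16 for Cdx2 (edgeR adjusted p = 0.523), 0.47 for Hnf4a (edgeR adjusted p = 0.107) and -0.00 for Gata4 (edgeR adjusted p = 1.00).

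**Figure D5:**
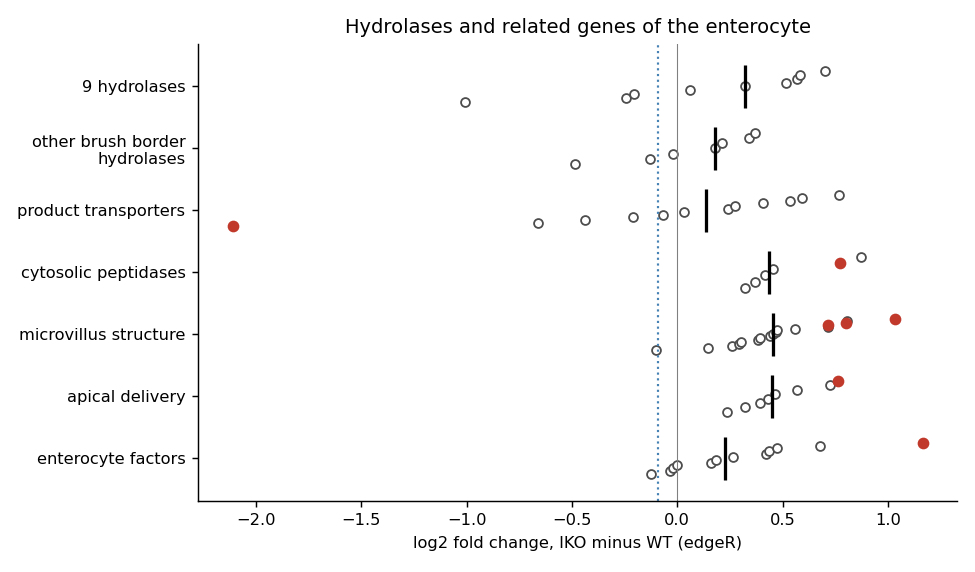
Log2 fold change (IKO minus WT, edgeR) of the 9 hydrolases and of 6 lists of related genes, with 1 point per gene tested, filled where the adjusted p is under 0.05, a black bar at the median of each list and a dotted line at the median of all genes (-0.09). The 9 hydrolases hold no filled point and lie on both sides of 0, whereas points of the cytosolic peptidases and the apical delivery genes all lie above 0.

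Markers of other cells were present in the mucosa. Vessel cells and pericytes also express Ace, Dpp4, Anpep and Enpep, and the 5 endothelial markers summed to 6.75 to 31.3 CPM in WT mice and 6.26 to 14.6 CPM in IKO mice, with 0 of 5 called. The 5 tested fibroblast markers summed to 6.28 to 339 CPM in WT mice (highest in WT 4) and 8.15 to 42.3 CPM in IKO mice, and the 5 macrophage markers to 27.9 to 214 CPM (highest in WT 7) and 15.9 to 69.1 CPM, with 0 called in either list. The 6 lymphocyte markers summed to 139 to 727 CPM in WT mice and 139 to 459 CPM in IKO mice. None of the 6 was called, and their median log2 fold change was -0.90, with Jchain, the most abundant, at -0.07 (edgeR adjusted p = 0.922), Cd8a at -0.07 (edgeR adjusted p = 0.864), Cd79a at -1.82 (edgeR adjusted p = 0.119) and Ptprc at -1.41 (edgeR adjusted p = 0.0797). Of 6 markers of crypt and cycling cells 0 were called, with a median of -0.59. Olfm4 was at -1.03 (edgeR adjusted p = 0.0833) and Mki67 at -1.05 (edgeR adjusted p = 0.0767), and in both 0 of 7 IKO values exceeded the median of WT mice. Pcna was at 0.26 (edgeR adjusted p = 0.266), where 7 of 7 IKO values exceeded it, and Top2a at -0.07 (edgeR adjusted p = 0.907), where 2 of 7 did. Of 5 villus tip markers 0 were called, with Ada at 0.97 (edgeR adjusted p = 0.140), Klf4 at 0.52 (edgeR adjusted p = 0.187), Slc28a2 at -0.01 (edgeR adjusted p = 0.991) and Nt5e at -0.997 (edgeR adjusted p = 0.0749). The part of these cells in the hydrolase levels was not tested.

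The genes with the most similar pattern were sought among 8218 genes with a mean log2 CPM of at least 3, by Pearson r of the deviations from the genotype mean over the 14 mice. Values given are the top 3 of 8218 for a hydrolase, so they are selected maxima and a description without a test. They were not computed again without IKO 4, the lowest IKO mouse for all 9 hydrolases. For Anpep they were Slco2a1 (r 0.959), Stom (0.957) and Npc1l1 (0.952), the last of which is the cholesterol transporter of the brush border. For Dpp4 the closest included 2010106E10Rik (0.991) and Frk (0.978). Enpep was closest to Tm9sf2 (0.993), Dsg2 (0.990) and Xpr1 (0.986), and Ace to Slc5a1 (0.983), AU040320 (0.982) and Ltb4r2 (0.982). Mep1a was closest to Slc22a23 (0.954), Tmem18 (0.952) and Slc37a3 (0.951), and Mep1b was closest to F2rl1 (0.988), H2-T3 (0.986) and Gpa33 (0.986). Sis was closest to Akap9 (0.972), Copb1 (0.972) and Bmpr1a (0.968). Lct and Treh shared their closest gene, Mcfd2 (0.980 and 0.984), which acts in export from the endoplasmic reticulum, and were followed by Slc16a10 (0.977) and Creb3l2 (0.971) for Lct and by Epha1 (0.982) and Slc36a1 (0.980) for Treh. Of the genes named here for their pattern only Slc22a23 was past the threshold between genotypes (log2 fold change 1.02, edgeR adjusted p = 0.0495).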

How the data were processed

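Libraries of ileum mucosa RNA came from 7 WT mice and 7 IKO mice. Per the labels and the study's methods, the authors aligned reads with HISAT2 2.0.5 to mm10 and made gene counts with featureCounts 1.5.0-p3. The deposited counts were used as raw counts, and the deposited FPKM, which the authors scaled with size factors, were used to order levels between genes. Strandedness and read filters were not given in the sources used here. Counts were tested with edgeR 4.0.16 (R 4.3.3, filterByExpr, TMM, quasi-likelihood test on genotype, Benjamini-Hochberg over 13846 genes). Log2 levels used a prior count of 2. Ratios and levels relative to 17 microvillus genes were tested with exact two-sided permutation tests over 3432 divisions of the mice, with a smallest possible p of 0.000583. The latter were adjusted over all genes tested in place of a planned adjustment over the 9 hydrolases. Alternatives were DESeq2 1.42.0, limma 3.58.1 on FPKM and voom weights, other filters and scaling, a replicate block and leaving out libraries. All 9 hydrolases were named, and, in each list, the called genes and otherwise up to 4 genes with the highest mean level, plus the 3 genes closest in pattern to each hydrolase. Members and lists were chosen with earlier results of these data known. On simulated data with 13635 genes, 22.9% of genes changed by 1 on the log2 scale and 77.2% of those changed by 2 were called. The changed genes were drawn at random from all genes, and these rates were not computed for the hydrolases. The hydrolases spread more within a genotype (SD of log2 CPM 0.69 to 1.44) than the median gene of at least the mean level of Treh (0.47). A few items that these rules select are not reported here.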

Additional observations from a re-analysis of the deposited data

Results flagged for a closer look

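In 5 of 48 groups of 7 mice the lowest mouse stood apart, with a gap to the next mouse above Dixon's 95% critical value for that share of the range of the group. Chance gives about 1 in 20 groups, or 2.4 of 48. The groups hold the same mice and values that vary together, so they are not independent and the 2 counts cannot be compared as a test. For the log2 CPM of Lct in IKO mice, IKO 4 took 0.623 of the range. Relative to the microvillus genes, IKO 4 took 0.572 of the IKO range for Dpp4, 0.659 for Mep1b and 0.702 for Lct, and WT 3 took 0.609 of the WT range for Mep1b. IKO 4 and WT 3 had mitochondrial shares of 50.3% and 23.9%, and the part of this in the values was not tested.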

How the results depend on the processing

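None of the 9 hydrolases was called in 27 of 27 fits. The count over all genes (1200) was 2444 with DESeq2, 508 without the filter, 614 with limma on log2(FPKM + 1) without a filter, 1889 with voom weights, 648 without WT 3 and IKO 4, 227 without WT 4, IKO 1 and IKO 2 (a setting chosen after seeing the data), and 515 (without IKO 5) to 1371 (without WT 2) without 1 library. The split of higher and lower calls was 607 and 593, against 708 and 328 with limma on log2(FPKM + 1), 706 and 317 with a pseudocount of 0.1, 426 and 222 without WT 3 and IKO 4, and 165 and 62 without the 3 libraries with smooth muscle genes. The replicate numbers did not pair the mice (deviations of same-numbered mice correlated at -0.305 to 0.232, over 0.1 in 1 of 7), and the replicate block gave 362 calls.

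Dpp4 to Anpep was -1.09 (adjusted exact permutation p = 0.026) without WT 3 and IKO 4 and -1.22 to -0.91 without 1 library. Signs turned for Enpep (0.053) and Ace (0.24) relative to the microvillus genes without WT 3 and IKO 4, and for Ace (0.14) and Mep1a (0.039) relative to Vil1 alone. Without 1 library, values that changed sign ran from -0.084 to 0.24 for Treh, -0.60 to 0.080 for Sis and -0.31 to 0.076 for Ace to Anpep. Relative to the microvillus genes they ran from -0.0067 to 0.37 for Anpep, -0.36 to 0.22 for Enpep, -0.22 to 0.44 for Ace, -0.31 to 0.18 for Mep1a and -0.42 to 0.034 for Mep1b. The cause was not tested. Each hydrolase had at least 310 counts in each library, so counting error was small beside the spread between mice.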
